A study of Mus musculus with 24 samples.

Results

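The genes described here are 10 genes of the circadian clock, read on 24 single-colour expression arrays of mouse muscle cells: the activators Arntl and Npas2, the period genes Per1, Per2 and Per3, the cryptochromes Cry1 and Cry2, the repressors Nr1d2 and Ciart, and the output factor Dbp. They were chosen by name, with earlier results of these data known. A gene was read from a transcript cluster, the set of probes an array assigns to a locus, that carries the symbol of that gene and no other. By this rule 9 of the 10 genes had a value among 22180 genes in all, each from a single cluster, and Per2, whose cluster carries several symbols, is not analysed here. Cry2 also has a cluster that carries several symbols, which was not used. The cells were primary muscle cells of ICR mice, isolated from the quadriceps, grown and then differentiated into myotubes.

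Control cells came from the young of dams with free access to chow, and undernourished cells from the young of dams that received 50% of what control dams ate, starting on gestation day 12.5 and ending at delivery. All dams fed freely after delivery, and litters were equalized to 8. Cells of each kind stayed in a standard differentiation medium with 5.5 mM glucose and 2% serum, or spent a night in a limited medium in which glucose was lowered to 0.5 mM and serum to 1%, with glutamine at 1 mM and carnitine at 0.5 mM. The 4 groups held 6 arrays each. Each culture number occurs on a standard and on a limited array, and the labels do not say what the number stands for, nor the age of the mice, the hour of harvest or any treatment that sets the clocks of the cells to a shared phase. The p-values therefore rest on sample-to-sample spread, some of it possibly technical.

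The clock of mammalian cells is a loop of transcription and repression. The proteins BMAL1, encoded by Arntl, and CLOCK or NPAS2 pair and bind E-box sequences in the promoters of the period and cryptochrome genes, whose products return to the nucleus and repress the pair. A second loop runs through nuclear receptors: the ROR proteins activate and the REV-ERB proteins, among them the product of Nr1d2, repress Arntl through shared elements. Another loop acts on D-box sequences, where DBP activates and NFIL3 represses. Cells in culture carry this clock, skeletal muscle included, and serum, glucocorticoids, cAMP signals and changes of medium are known to reset it.

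The promoters carry the letters through which these loops act, so windows of the genes with a match and a change or a steady direction across cultures are printed first. The windows run from 250 bases before to 50 bases after a gene's start in RefSeq (build GRCm38.p6), are written 5′ to 3′ on the strand of the gene, and show in capitals every match to a searched motif on either strand. The motifs were the E-box CACGTG, the variant E-prime box CACGTT, the D-box TTATGTAA, the ROR element in its forms TAGGTCA and TGGGTCA, and the cAMP element TGACGTCA. No capital stretch below belongs to more than 1 motif.
Ciart, chr3:95882179-95882478, minus strand: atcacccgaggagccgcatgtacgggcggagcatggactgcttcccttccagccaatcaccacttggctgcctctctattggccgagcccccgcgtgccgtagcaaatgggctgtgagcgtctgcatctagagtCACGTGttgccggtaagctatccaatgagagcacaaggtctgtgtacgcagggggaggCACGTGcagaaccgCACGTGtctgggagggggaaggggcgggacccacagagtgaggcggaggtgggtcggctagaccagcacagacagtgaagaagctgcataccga
Per1, chr11:69098699-69098998, plus strand, the first of 2 listed starts: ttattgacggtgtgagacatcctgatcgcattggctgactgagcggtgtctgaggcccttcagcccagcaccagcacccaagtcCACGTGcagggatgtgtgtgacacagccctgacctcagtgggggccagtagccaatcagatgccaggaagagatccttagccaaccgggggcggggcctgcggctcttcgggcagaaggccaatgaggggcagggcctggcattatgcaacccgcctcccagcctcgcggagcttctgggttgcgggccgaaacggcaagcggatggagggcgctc
Cry1, chr10:85185005-85185304, minus strand: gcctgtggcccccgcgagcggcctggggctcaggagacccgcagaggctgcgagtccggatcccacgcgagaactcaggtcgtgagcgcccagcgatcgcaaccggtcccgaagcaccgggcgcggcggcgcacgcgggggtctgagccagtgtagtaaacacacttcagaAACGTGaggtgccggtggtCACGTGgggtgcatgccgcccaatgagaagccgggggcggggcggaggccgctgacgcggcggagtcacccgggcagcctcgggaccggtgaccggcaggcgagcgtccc
Per3, chr4:151044616-151044915, minus strand: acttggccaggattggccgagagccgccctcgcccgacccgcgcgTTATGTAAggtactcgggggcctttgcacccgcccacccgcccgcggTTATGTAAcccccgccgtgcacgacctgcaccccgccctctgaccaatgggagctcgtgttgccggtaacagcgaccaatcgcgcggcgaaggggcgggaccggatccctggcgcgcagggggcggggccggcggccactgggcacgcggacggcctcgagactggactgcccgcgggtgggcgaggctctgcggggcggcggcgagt
Arntl, chr7:113207261-113207560, plus strand, the second of 2 listed starts: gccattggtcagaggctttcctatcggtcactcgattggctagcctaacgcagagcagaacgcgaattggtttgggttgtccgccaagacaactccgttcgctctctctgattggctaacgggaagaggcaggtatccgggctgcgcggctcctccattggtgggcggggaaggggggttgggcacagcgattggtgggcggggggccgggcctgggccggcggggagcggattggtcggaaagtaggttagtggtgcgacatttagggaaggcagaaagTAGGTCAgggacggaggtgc

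The Ciart window held 3 E-boxes, beginning 116, 58 and 44 bases before the start. The first Per1 window held an E-box 166 bases before its start, and the Cry1 window an E-box at 60 and an E-prime box at 79 bases before its start. The Cry2 window, not printed, held an E-prime box 166 bases before the start. The Per3 window held 2 D-boxes, at 205 and 158 bases before the start. The second Arntl window held a ROR element 31 bases into the gene, and its first window, further upstream, held none of the motifs. Of the 11 windows of the 9 genes, 3 held an E-box, against 7.15% of all 32851 windows of this length. An E-prime box was in 2 of the 11 windows against 4.68% of all windows, the D-box in 1 against 0.938%, and the ROR element TAGGTCA in 1 against 2.61%. The ROR form TGGGTCA and the cAMP element, in 3.98% and 1.79% of all windows, had no match in the genes' windows. The windows of Npas2, Nr1d2 and Dbp and the second window of Per1 held no match to any motif, which says only that these letters are not in these windows.

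**Figure D1:**
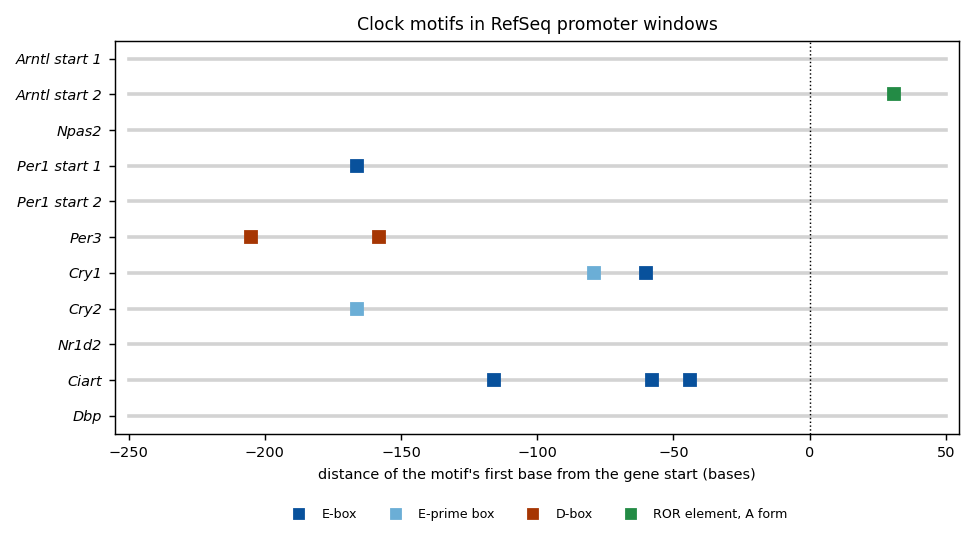
Matches to clock motifs in the RefSeq promoter windows of the 9 measured clock genes. The x axis is the distance in bases from the gene start (dotted line), grey lines are the windows and squares the first base of a match. Ciart has 3 E-boxes, Per3 has 2 D-boxes, and 5 windows have no match.

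In limited medium, 4 of the 9 measured clock genes rose and 1 fell. Arntl rose 1.32-fold, Ciart 1.32-fold, Nr1d2 1.29-fold and Per1 1.29-fold over both maternal diets, and Per3 fell by 0.35 ± 0.08 (SE) on the log2 scale. Cry1 was higher in limited medium in all 12 cultures and did not pass the threshold, and Cry2, Dbp and Npas2 did not pass either. The threshold was an adjusted p under 0.05 in limma, a linear model fitted across all genes, with Benjamini-Hochberg adjustment over all 22180 genes. By it 6.84% of all genes were called, 3.56% higher and 3.28% lower. The median difference over the 9 genes was 0.29 on the log2 scale, and over all genes 0.01. As earlier results of these data were known when the genes were chosen, this contrast with all genes is a description and not a test. In these bulk samples, fewer cells of a type and less RNA per cell cannot be told apart. As the hour of harvest is not given, a shift of the clock's phase and a change of level cannot be told apart. Nor can lowered glucose, lowered serum and the change of medium itself.

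The count rested in part on single cultures. It was 2 without culture 5 of the controls, 3 without culture 15 or 10 of the controls or culture 4, 1 or 12 of the undernourished cells, and 4 or 5 without any other culture. Arntl and Per3 were called in each of these 12 fits. The count was 4 without cultures 16, 24 and 20, each of which had the highest fibroblast or glial marker level in at least 1 group. Over both diets, the standard and limited arrays of all 9 genes overlapped, where 0.126% of all genes did not.

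**Figure D2:**
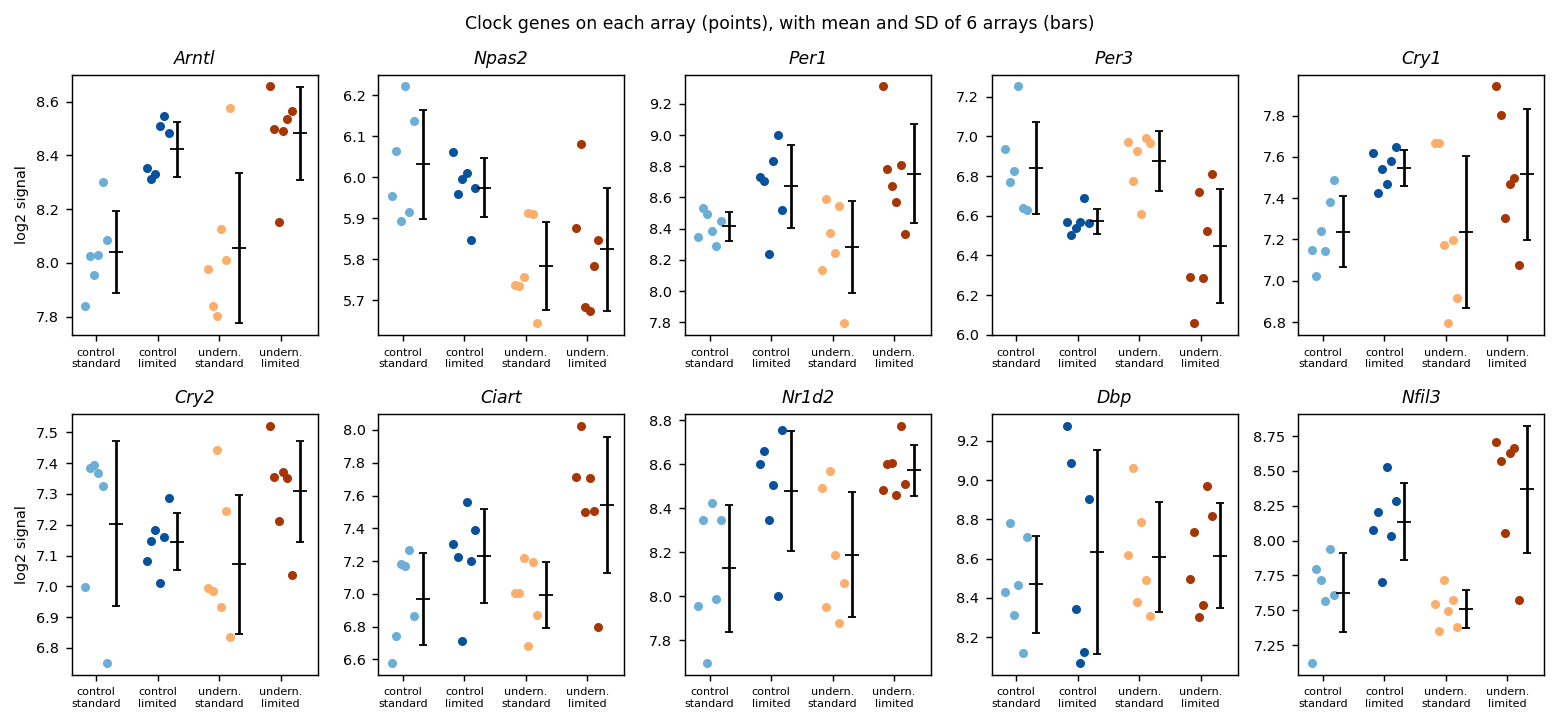
Log2 signal (y axis) of the 9 measured clock genes and of Nfil3 in the 4 groups of maternal diet and medium. Each point is 1 array, and bars give the mean and SD of 6 arrays. Arntl and Nfil3 sit higher and Per3 sits lower in limited medium under both diets, while the Dbp groups overlap widely.

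Arntl encodes BMAL1, the activator that the core loop cannot run without. In control cells its log2 signal ran from 7.84 to 8.30 with a median of 8.03 in standard medium, and from 8.31 to 8.55 with a median of 8.42 in limited medium. The 2 groups of control arrays did not overlap, which held for 1.19% of all genes and for no other of the 9. In undernourished cells it ran from 7.80 to 8.58 with a median of 7.99 in standard and from 8.15 to 8.66 with a median of 8.52 in limited medium, and these groups overlapped. The overlap came from culture 20 alone, whose standard array was the highest of that group, since the other standard arrays stayed at or below 8.12. In undernourished cells 0 of the 9 genes separated by medium, where 1.09% of all genes did. The difference over both diets was 0.41 ± 0.08 (SE, limma adjusted p = 0.00213). Arrays of 11 of 12 cultures rose, by between 0.25 and 0.68, and undernourished culture 20 differed by -0.01.

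Npas2 can stand in for CLOCK as the partner of BMAL1. Control standard arrays lay between 5.89 and 6.22 (median 6.01), control limited between 5.85 and 6.06 (5.98), undernourished standard between 5.64 and 5.91 (5.75) and undernourished limited between 5.67 and 6.08 (5.82). The media overlapped under both diets. The medium difference was -0.01, with a 95% interval from -0.12 to 0.11. Clock, the usual partner, differed by -0.01 as well (interval from -0.17 to 0.15), so neither partner moved past the threshold where Arntl did. Npas2 was dim, with a mean of 5.90 against 6.02 for the median gene. How far its signal lay over background is not known, which limits what its small difference can show.

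Per1 is the period gene that responds fastest to resetting signals. Control standard arrays lay between 8.29 and 8.53 (median 8.42) and control limited arrays between 8.24 and 9.00 (median 8.72). Undernourished standard arrays lay between 7.79 and 8.59 (median 8.31) and limited arrays between 8.37 and 9.31 (median 8.73). The groups overlapped under both diets, with control culture 11 the lowest of the control limited arrays and undernourished culture 1 the highest of all. Over both diets Per1 rose by 0.36 ± 0.10 (adjusted p = 0.0271), and 11 of 12 cultures were higher. That call did not survive leaving out culture 5, 16, 15 or 10 of the controls or culture 1 of the undernourished cells, at an adjusted p from 0.0501 to 0.072 and differences from 0.29 to 0.37, and without cultures 16, 24 and 20 together (0.0616).

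Per3, a period gene that the basic loop can do without, moved the other way. It ran from 6.63 to 7.25 (median 6.80) in control standard and from 6.50 to 6.69 (median 6.57) in control limited arrays. It ran from 6.61 to 6.99 (median 6.95) in undernourished standard and from 6.06 to 6.81 (median 6.41) in undernourished limited arrays. The groups overlapped slightly in control cells and over a wider range in undernourished cells, where cultures 20 and 8 stayed highest in limited medium. The fall was 0.35 ± 0.08 on the log2 scale (adjusted p = 0.00964), and 11 of 12 cultures were lower, control culture 16 being the exception at 0.05.

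Cry1 and Cry2 encode the proteins that shut off BMAL1. Cry1 ran from 7.02 to 7.49 (median 7.20) on control standard arrays and from 7.42 to 7.65 (median 7.56) on control limited arrays. Undernourished arrays spread from 6.79 to 7.67 (median 7.18) in standard and from 7.08 to 7.94 (median 7.48) in limited medium, so that the media overlapped although every culture was higher in limited medium. Of the 9 genes 1 moved the same way in all 12 cultures, as did 2.6% of all genes. The difference was 0.29 ± 0.10 (adjusted p = 0.0819). It was called with arrays weighted by their quality (adjusted p = 0.0429) and with the culture number as a random block (0.0265). Cry2 ran from 6.75 to 7.39 (median 7.35) and from 7.01 to 7.29 (median 7.15) on control standard and limited arrays. For undernourished cells the ranges were 6.83 to 7.44 (median 6.99) and 7.04 to 7.52 (median 7.35), again overlapping. It differed by -0.06 in control and 0.24 in undernourished cells, with neither past the threshold and a test of the difference between them that did not pass (0.30 ± 0.16, adjusted p = 1.00).

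Ciart, also called Chrono, is a repressor of the BMAL1 pair and a direct target of it, and its window holds the most E-boxes of the genes shown. It ran from 6.58 to 7.27 (median 7.02) in control standard, from 6.71 to 7.56 (median 7.26) in control limited, from 6.68 to 7.22 (median 7.00) in undernourished standard and from 6.80 to 8.03 (median 7.61) in undernourished limited arrays. In limited medium the lowest were control culture 11 and undernourished culture 20. The rise over both diets was 0.40 ± 0.12 (adjusted p = 0.0342), in 9 of 12 cultures. It lost its call on leaving out culture 5, 24, 15 or 10 of the controls or culture 9, 4, 1 or 12 of the undernourished cells, at an adjusted p from 0.0518 to 0.0972 and differences from 0.36 to 0.43.

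Nr1d2 encodes REV-ERB beta, the repressor of Arntl in the second loop. It ran from 7.70 to 8.42 (median 8.17) in control standard and from 8.00 to 8.76 (median 8.55) in control limited arrays. Undernourished cells gave 7.88 to 8.57 (median 8.12) in standard and 8.46 to 8.77 (median 8.55) in limited medium. The limited arrays of undernourished cells lay close together, and the overlap with standard medium came from cultures 8 and 1, which were already high there. The rise was 0.37 ± 0.10 (adjusted p = 0.0219), in 11 of 12 cultures. Without control culture 5 or undernourished culture 4 or 12 the adjusted p was 0.0682, 0.0642 and 0.0763, with differences from 0.32 to 0.34. Its close relative Nr1d1, which encodes REV-ERB alpha, differed by -0.08 ± 0.10.

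Dbp, a D-box activator driven by BMAL1 in many tissues, showed no common direction. It ran from 8.12 to 8.78 (median 8.45) in control standard and from 8.07 to 9.28 (median 8.62) in control limited arrays, whose SD of 0.52 was the largest of any group of the 9 genes. It ran from 8.31 to 9.06 (median 8.56) in undernourished standard and from 8.30 to 8.97 (median 8.62) in undernourished limited arrays, so the media overlapped throughout. Limited arrays were higher by 0.85, 0.51 and 0.48 in cultures 5, 20 and 12, and differed by -0.40 and -0.42 in cultures 15 and 9. The difference over both diets was 0.09, with a 95% interval from -0.18 to 0.36.

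**Figure D3:**
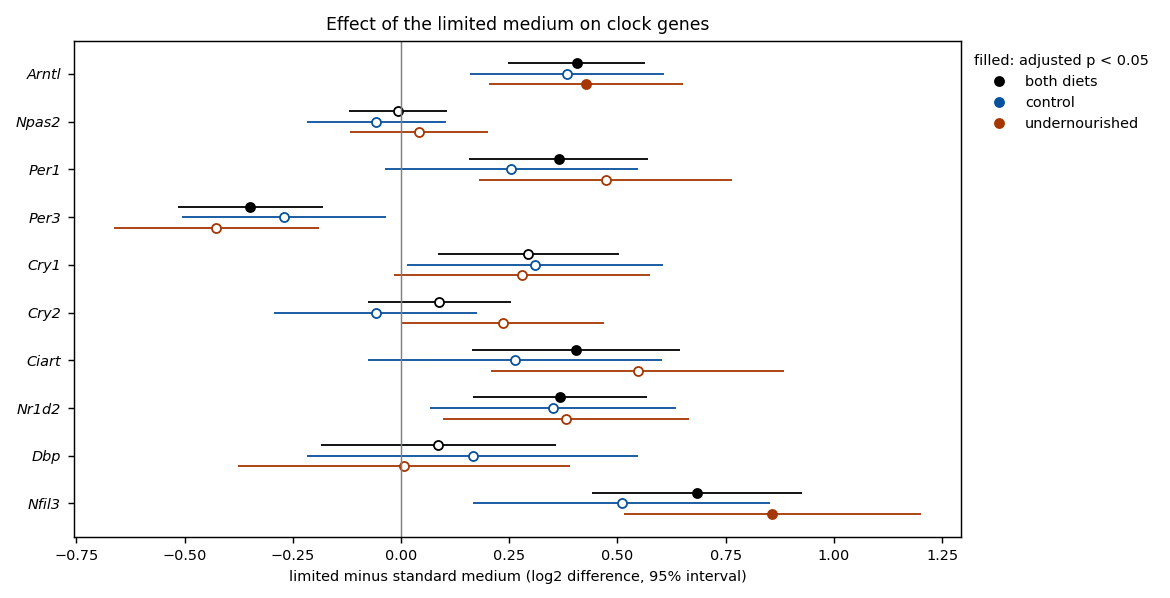
Difference between limited and standard medium (log2, x axis) for the 9 measured clock genes and Nfil3, over both maternal diets and within each. Points are limma estimates, bars 95% intervals, and filled points have an adjusted p under 0.05. Arntl, Per1, Ciart, Nr1d2 and Nfil3 lie above 0 and Per3 below 0 over both diets, with 2 filled points in undernourished and none in control cells.

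Within control cells 0 of the 9 genes passed, against 0.343% of all genes called. At an unadjusted p under 0.05 stood 4 of the 9 and 13.1% of all genes. Arntl came closest (0.38 ± 0.11, adjusted p = 0.109). Within undernourished cells Arntl passed (0.43 ± 0.11, adjusted p = 0.0455), against 1.46% of all genes called. At an unadjusted p under 0.05 stood 6 of the 9 and 13.4% of all genes. Per3 (-0.43 ± 0.11, adjusted p = 0.0588), Per1 (0.47 ± 0.14, 0.0978) and Ciart (0.55 ± 0.16, 0.1) came next. The Arntl call in undernourished cells was lost on leaving out culture 5, 24, 15, 11 or 10 of the controls or culture 9, 4, 1 or 12 of the undernourished cells, at an adjusted p from 0.0548 to 0.21. Per3 was called there without undernourished culture 20 (adjusted p = 0.0318) and without control culture 15 (0.0408), and Ciart without undernourished culture 20 (0.0202). Arntl was called in control cells without undernourished culture 20 (0.0439), which changes only the shared spread.

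The medium response was not shown to differ between maternal diets. Of the 9 genes 0 passed the test of the difference in limma, with 0 at an unadjusted p under 0.05, against 0% of all genes called and 643 genes at an unadjusted p under 0.05. The estimates ran from -0.16 for Dbp (95% interval -0.70 to 0.38) to 0.30 for Cry2 (-0.03 to 0.63). Per1 (0.22 ± 0.20) and Ciart (0.28 ± 0.23) had larger estimates in undernourished cells and intervals that include 0.

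Maternal diet itself gave no call in either medium. In standard medium 0 of 9 clock genes and 0% of all genes passed in limma, with 1 and 697 at an unadjusted p under 0.05. The 1 clock gene was Npas2, lower in undernourished cells by 0.25 ± 0.08 (unadjusted p = 0.0037, adjusted p = 1.00), with an interval of the difference from -0.41 to -0.09. Its undernourished standard arrays lay between 5.64 and 5.91 and the control standard arrays between 5.89 and 6.22, so the groups overlapped narrowly. Npas2 was also the dimmest of the 9 clock genes, with a mean under that of the median gene. In limited medium it differed by -0.15 ± 0.08. There 0 of 9 clock genes and 0% of all genes passed, with 0 clock genes and 1206 of all genes at an unadjusted p under 0.05, and the clock gene with the largest difference was Ciart (0.31 ± 0.16, adjusted p = 0.907).

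**Figure D4:**
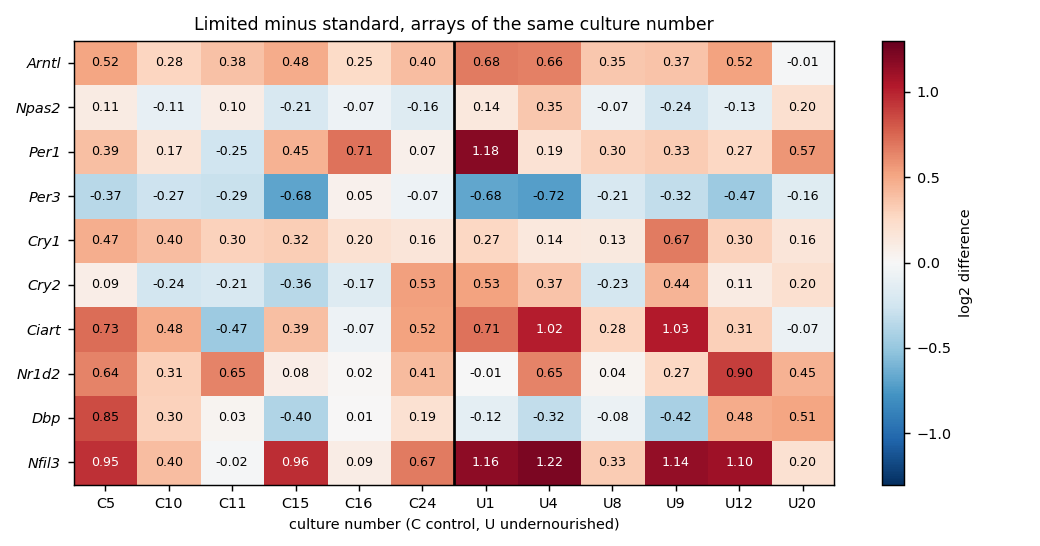
Limited minus standard log2 signal for arrays that carry the same culture number, with genes in rows, cultures in columns, C for control and U for undernourished. Red is higher and blue lower in limited medium. Cry1 is higher in every culture, Per3 is lower in all but C16, and culture U20 shows little change in Arntl, Ciart and Nfil3.

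Undernourished culture 20 stood apart for some of the genes and not for others. Between media its Per1 rose by 0.57, its Nr1d2 by 0.45 and its Dbp by 0.51. Its Arntl signal was already 8.58 in standard medium, its Ciart differed by -0.07 between media, and in limited medium it had the lowest Per1, Cry1, Cry2 and Ciart and the highest Per3 of the undernourished arrays. It also had the highest mean level of the 4 measured Schwann and glial markers in both media, 7.19 in standard and 6.98 in limited medium, where the lowest undernourished arrays had 4.65 and 4.82. Its mean over 7 measured fibroblast markers was the highest of the undernourished groups too, at 6.92 and 7.08. In control cells culture 16 was the highest for the fibroblast markers, at 6.87 and 7.27. Its Arntl difference, 0.25, was the smallest of the control cultures, and its Per3 difference, 0.05, the only rise of Per3. Its Per1 difference, 0.71, was the largest of the control cultures. Neither list had a gene called for the medium, and the part of these cells in the clock results was not tested. Without cultures 16, 24 and 20 the Arntl difference was 0.46 and the Per3 difference -0.44. The 12 markers of differentiated myotubes averaged between 11.68 and 12.19 on all arrays, and 2 of them rose in limited medium. Their mean was 11.92 in standard and 12.06 in limited medium in control cells, and 11.83 and 11.98 in undernourished cells. The SD within groups ran from 0.09 to 0.13. The part of this shift in the clock results was not tested. Markers of endothelial cells, leukocytes and adipocytes averaged between 4.96 and 5.43, with none called for the medium. Of 8 markers of satellite cells and myoblasts 1 fell, with array means between 8.48 and 9.07, and of 5 tenocyte markers 1 rose, with array means between 5.59 and 6.12. The 6 markers of smooth muscle and pericytes had none called and were highest in culture 16 of the controls (7.33 in standard and 7.49 in limited medium) and culture 20 of the undernourished cells (7.58 and 7.57).

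No pair of clock genes passed a test of whether their changes ran together across cultures. Over the 12 cultures, the differences between media were compared for 36 pairs of genes by Pearson's r and Spearman's rho, each with a permutation test, two-sided and adjusted over the 72 tests. The closest relation was between Arntl and Per3: cultures with the larger rise of Arntl had the larger fall of Per3 (r = -0.76, permutation p = 0.00367, adjusted p = 0.132, rho = -0.81, permutation p = 0.00211, adjusted p = 0.132). It did not pass the adjustment. The r was -0.82 without the 2 cultures farthest from the median Arntl difference, -0.70 within control and -0.91 within undernourished cultures. The other pair with an unadjusted p under 0.05 was Per1 and Nr1d2 (r = -0.58, permutation p = 0.0428, adjusted p = 0.608, rho = -0.62, permutation p = 0.0345, adjusted p = 0.608), whose r was -0.39 without the 2 farthest cultures. For standard-medium levels no pair of 36 passed either. There Arntl and Per1 had r = -0.72 (permutation p = 0.0173, adjusted p = 0.939) and rho = -0.41 (permutation p = 0.184, adjusted p = 0.939), and r was -0.15 without the 2 farthest cultures, so that relation rests on them. Cry2 and Ciart had r = 0.60 (permutation p = 0.0451, adjusted p = 0.939) and rho = 0.54 (permutation p = 0.0738, adjusted p = 0.939), and r was 0.55 without the 2 farthest cultures, 0.53 within control and 0.83 within undernourished cultures. Values of a culture share their arrays, and with them any error of an array. The differences between media also pair arrays by the culture number, whose meaning the labels do not give.

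Among 12 other genes of the core and side loops, of which 11 were measured, Nfil3 rose and none fell, a share near the 6.84% of all genes called. Nfil3 encodes the D-box repressor that opposes DBP. Its medians were 7.67 and 8.14 on control standard and limited arrays, and 7.52 and 8.60 for undernourished cells. Undernourished limited arrays ran from 7.58, in culture 20, to 8.71, and standard arrays from 7.35 to 7.72, so culture 20 alone kept the groups from separating. The rise was 0.68 ± 0.12 over both diets (a 1.61-fold rise, adjusted p = 0.00103), in 11 of 12 cultures, and 0.86 ± 0.17 in undernourished cells (adjusted p = 0.00969). The rise over both diets was called without each culture in turn, with adjusted p of at most 0.00507. The call within undernourished cells ended without undernourished culture 9, 4, 1 or 12 (adjusted p from 0.0506 to 0.0761).

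The remaining genes of that list did not pass over both diets. The repressor Bhlhe41 differed by -0.27 ± 0.10 (adjusted p = 0.0997) and its relative Bhlhe40 by -0.07 ± 0.14. Bhlhe41 differed by -0.48 ± 0.14 in undernourished and -0.06 ± 0.14 in control cells, and the test of that difference did not pass (-0.42 ± 0.20, adjusted p = 1.00). Cipc, an inhibitor of CLOCK, differed by 0.18 ± 0.06 and the BMAL1 relative Arntl2 by -0.14 ± 0.07. The D-box activators Tef and Hlf differed by 0.10 and 0.00, and the receptors Rora and Rorb by -0.02 and 0.12.

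Of 13 measured enzymes and partners that modify clock proteins, 1 fell and none rose, a share near the 6.84% of all genes called. It was the casein kinase Csnk1a1 (-0.15 ± 0.04, adjusted p = 0.0324), a call lost on leaving out culture 5, 24, 16, 15 or 10 of the controls or culture 4, 1 or 12 of the undernourished cells (adjusted p from 0.0569 to 0.0757). Of 11 measured output genes, which cycle with the clock in muscle or in many tissues, 0 passed in limma and 3 had an unadjusted p under 0.05, as had 20.3% of all genes. Closest was Pdp1 (-0.28, limma adjusted p = 0.050003). It was called lower without control culture 11 (0.0387) or undernourished culture 20 (0.0317). The same held with dim genes dropped, quantile normalization, array weights, or the culture number as a random or replicate block. Hk2, Pdk4 and Dgat2 were called higher with the replicate block (adjusted p = 0.0191, 0.0205 and 0.0440). Hk2 was also called with the random block (0.0410). Of 12 genes that respond to glucocorticoids or cAMP, 3 rose and 2 fell, against 3.56% and 3.28% of all genes. Klf9, a glucocorticoid target (0.55 ± 0.14, adjusted p = 0.0148), and the orphan receptors Nr4a2 (0.49 ± 0.12, 0.0163) and Nr4a3 (0.49 ± 0.14, 0.0304) rose. Fos, an immediate early gene, fell by 0.37 ± 0.10 (adjusted p = 0.0317), and Errfi1, named after its value was seen, fell by 0.33 ± 0.09 (0.0331). The other 7 genes did not pass, and they had no common direction. Under both diets, Nr4a1, Sik1 and Crem had lower group means in limited medium, and Tsc22d3 and Sgk1 had higher ones. The glucocorticoid targets Fkbp5 and Zbtb16 differed in direction between the diets. The Klf9 call ended without undernourished culture 12 (adjusted p = 0.0517) and the Nr4a2 call without control culture 5 (0.0511). The Nr4a3 call was lost on leaving out culture 24, 10, 4, 1 or 12, the Fos call on leaving out culture 5, 15, 9, 8 or 1, and the Errfi1 call on leaving out culture 5, 24, 16, 10, 9, 4 or 1, at an adjusted p of at most 0.0734. Without cultures 16, 24 and 20 together the adjusted p was 0.0838 for Nr4a2, 0.101 for Nr4a3, 0.0891 for Fos, 0.139 for Errfi1 and 0.132 for Csnk1a1.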

How the data were processed

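RNA of 24 samples was measured on 1 array each. The authors deposited 1 value per array for 41345 transcript clusters, made with RMA in Affymetrix Expression Console per the submitters' processing notes. Software versions, genome build and the base of the logarithm were not given in the sources used. As the deposited values reached from 1.69 to 14.1 and the medians of arrays from 5.60 to 5.81, they were taken to be log2 signal. No pair of arrays held identical values.

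Clusters were named from GEO's annotation of the platform, and symbols were brought up to date through Entrez identifiers (RefSeq, GRCm38.p6). Of them 23521 had 1 symbol, 1814 several and 16010 none. The brightest cluster of a gene was used, and dim genes were kept. All 22180 genes were fitted with limma 3.58.1 in R 4.3.3 (lmFit, eBayes, 4 groups of 6, shared spread, two-sided tests). Errors of differences are standard errors. Correlations used 100000 resamples in Python 3.11.15. The number of arrays limits the precision. The procedure was tested on simulated data. The clock genes, the lists and the tests were chosen with earlier results of these data known. The text names all 9 measured clock genes, every measured gene of the other core list and up to 4 called genes of each other list by smallest p. Output genes called only under alternatives and the rest of the glucocorticoid and cAMP list were named after their values were seen. The 5 genes most correlated with Arntl and with Dbp are named too. Alternatives covered left-out cultures, a filter on dim genes, normalization, array weights, the cluster rule, the culture number, a second number in the titles and the threshold.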

Additional observations from a re-analysis of the deposited data

Results flagged for a closer look

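Of 40 sets of 6 arrays checked for the 9 clock genes and Nfil3, 2 held an array far from the rest, which is about the number chance gives, since chance marks about 1 set in 20. In undernourished limited arrays the Arntl signal of culture 8 was 8.15, with the next array at 8.49 and the highest at 8.66. In control limited arrays the Per3 signal of culture 16 was 6.69, with the next array at 6.57 and the lowest at 6.50.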

How the results depend on the processing

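Over both diets, the count of called clock genes was between 4 and 6 under the alternatives other than left-out cultures and 2 to 5 without 1 culture, against 5. In undernourished cells the count of 1 ran from 0 to 3 without 1 culture and was 2 when dim genes (under the median) were dropped, 3 with array weights or without cultures 16, 24 and 20, 4 with the culture number as a random block or at an adjusted p under 0.1, and 0 with the title number as a covariate. In control cells the count of 0 ran from 0 to 1 without 1 culture and was 1 with array weights or the random block. Arrays with the same culture number deviated together in 10 of 12 cultures (correlation over 0.1; range -0.05 to 0.56), and 10 of 12 standard arrays correlated best with their own number, which is a hint of pairing from the data. The other 2 cultures lay at or below 0.1 and the labels do not say what the number means, so the number stayed out of the reported fit. With the culture number as a replicate block the counts were 6 over both diets, 1 in control and 3 in undernourished cells and 0 for the difference between diets, and Cry1 was called over both diets (adjusted p = 0.00329, with 0.00329 to 0.171 over all alternatives). The count of all genes called over both diets, 1517, was 991 without control culture 5, 996 without undernourished culture 4, 2426 with the random block, 2597 with the replicate block and 2325 at an adjusted p under 0.1. In control cells 76 genes ran from 10 to 162 without 1 culture and up to 551 with the replicate block, and in undernourished cells 324 ran from 51 to 469 and up to 1007. Diet in limited medium called 2 genes without undernourished culture 20 and 1 with array weights, against 0. No called clock gene changed direction, and the counts of correlated pairs were 0 under each alternative. The cause of these shifts was not tested. The labels give no detection calls, so the signal over background is not known.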

Other observations

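Outside the clock genes, the genes whose log2 signal over the 24 arrays was most like that of Arntl, among 10329 brighter genes (mean no lower than the median gene, gene models, small RNAs and receptor families left out), were Niban2 (r = 0.85), Rcl1 (0.84), the endoplasmic reticulum chaperone Calr (0.82), Trim8 (0.82) and Ubtf, a factor of ribosomal RNA transcription (0.80). Each of these 5 was called higher in limited medium, by 0.18 (Trim8) to 0.65 (Calr), and the points share the contrast of media and the culture numbers. The genes most like Dbp were Prr15 (r = 0.76), the carbonic anhydrase Car2 (0.74), Sdr39u1 (0.73), Poldip2 (0.72) and Clip4 (0.70). None of these 5 was called for the medium by limma, with adjusted p from 0.204 to 0.941.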
